A study of Danio rerio with 26 samples.

Results

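Synaptic, glutamatergic and neuron cytoskeleton genes were followed through 26 zebrafish (Danio rerio) brain libraries by matching 40 gene symbols to the rows of the deposited count tables, case ignored and with the final letter a or b optional. Of these symbols 37 were matched, to 39 of 32105 genes, and vamp1, sypa and camk2b1 were not. The genes fall into 10 of the release machinery, 14 glutamate genes, 2 GABA receptor genes, 7 cytoskeleton genes, 4 genes of neuronal RNA-binding proteins and 2 genes that enter the counts only. Every fish was male and had been given rotenone, a plant compound that blocks complex I of the mitochondrial respiratory chain, and the series names no untreated fish. The groups were 10 fish of 1 year at 3.75 nM rotenone and 9 fish of 1 year at 37.5 nM, both with the strain label AB JxTu, and 7 fish of 3 years at 37.5 nM, labelled AB JxTu Tg(flk:mCherry), a name that stands for a red fluorescent reporter under control of the endothelial receptor gene flk. Age can therefore not be told apart from strain label, nor concentration from count table, because the 3.75 nM libraries were deposited in a table of their own. Where one capital symbol is carried by more than one gene, as is common for duplicated zebrafish genes in the symbol table used, the Ensembl identifier is given and no copy is called a or b.

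At a chemical synapse, an arriving impulse opens calcium channels, and calcium binding to synaptotagmin lets SNARE proteins of vesicle and plasma membrane (vamp2, SNAP25, syntaxin) fuse the vesicle. Vesicular transporters of the SLC17 family load glutamate, which opens AMPA and NMDA receptors held in place by scaffolds such as DLG4 (PSD-95), while GABA opens chloride channels. Neurofilaments fill axons, and the microtubule proteins map2 and tau stabilise dendrites and axons. RNA was measured here, neither protein nor synapses. In whole brain tissue, fewer cells of a type and less RNA per cell cannot be told apart.

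Library totals ran from 20.6 to 36 in units of 1000000 counts, so that 1 count per 1000000 (CPM) is worth 20.6 counts in the smallest library. A gap splits the fish numbers in the titles into a lower and a higher run. Inside the lower run a further gap parts the fish at 3.75 nM from those at 37.5 nM. Each group has fish in both runs (5 and 5 at 3.75 nM, 4 and 5 of 1 year at 37.5 nM, 3 and 4 of 3 years), and no label names what the runs differ in. Markers of tissues beside the brain stood high in some libraries. Eye and pineal markers summed to 614 and 392 CPM in replicates 1 and 5 of the 1 year fish at 37.5 nM and to 571 and 393 CPM in replicates 1 and 5 of the 3.75 nM fish, against a median of 56.9. These markers summed to 167 CPM in another 1 year library at 37.5 nM, replicate 6. Skeletal muscle markers summed to 2742 CPM in replicate 4 of the 1 year fish at 37.5 nM and 2116 CPM in replicate 4 of the 3.75 nM fish, against a median of 277, and the latter library also held 3796 CPM of skin and mucosa markers against 440. Replicate 7 of the 3 year fish held 988 CPM of the latter markers. Pituitary markers summed to 324 CPM in the muscle-rich replicate 4 of the 1 year fish at 37.5 nM, against a median of 16.5. Of brain glia, the 16 matched oligodendrocyte markers summed to at least 7415 CPM and the 21 radial glia markers to at least 5003 CPM in every library.

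All 39 genes together took a median of 1.81% of counts in 1 year fish at 3.75 nM, 1.82% in 1 year fish at 37.5 nM and 1.76% in 3 year fish, and the ranges of the groups overlapped. Per gene length, as transcripts per 1000000 (TPM), SNAP25 (ENSDARG00000020609), a SNARE of the presynaptic membrane, was the highest at a median of 3080 TPM over 26 fish and ranked 21 among all genes with a length. The other SNAP25 gene (ENSDARG00000058117) followed at 868 TPM. The NMDA receptor gene GRIN1 (ENSDARG00000027828) stood at 626 TPM. The vesicle protein genes sypb, SYT1 and SYN2 stood at 532, 439 and 369 TPM. Cytoskeleton genes ranged from 277 TPM for nefma, a neurofilament of medium weight, to 46.5 TPM for nefmb. The vesicular glutamate transporter genes had 75.1 and 64.1 TPM for the 2 genes of SLC17A6 and 71.4 and 6.0 TPM for the 2 of SLC17A7. At the bottom, syt1b stood at 0.639 TPM and dlg4b at 0.343 TPM, and STX1A had a median of 0.

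**Figure D1:**
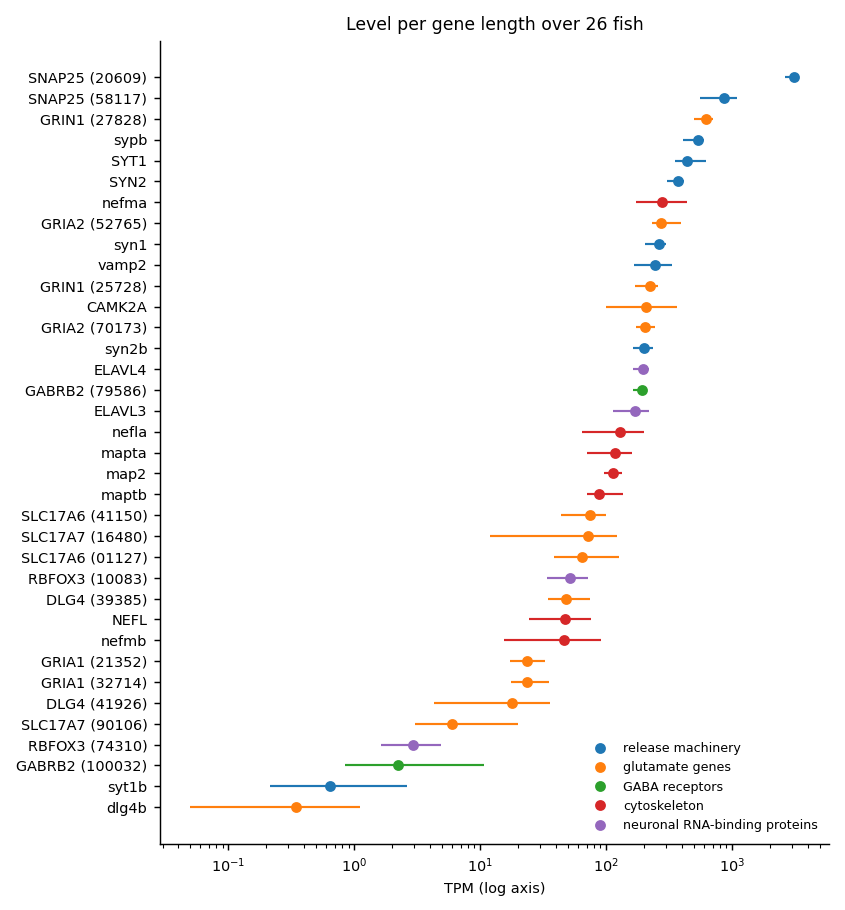
Level per gene length of 36 genes over 26 fish on a log axis in TPM, coloured by class, with identifiers shortened to their last digits (STX1A, median 0, is not drawn). Points are medians and lines run from the lowest to the highest fish, with a lowest value of 0 (dlg4b) drawn at 0.05; the SNAP25 gene ENSDARG00000020609 stands alone at the top and syt1b and dlg4b at the bottom.

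Duplicated copies shared the expression of a symbol very unequally in some families and evenly in others. For the calcium sensor SYT1 the gene without a letter held 99.8% of the pair's level per length, against syt1b, and never less than 99.5% in a fish. GABRB2 (ENSDARG00000079586), a beta subunit of the GABA-A receptor, held 98.9% of its pair, RBFOX3 (ENSDARG00000010083), the gene of the neuronal splicing factor NeuN, 94.4%, and SLC17A7 (ENSDARG00000016480) 92.7%. The neurofilament gene nefma held 85.5% against nefmb, SNAP25 (ENSDARG00000020609) 77.4%, nefla 72.3% against NEFL, and DLG4 (ENSDARG00000039385) 72.2%. GRIN1 (ENSDARG00000025728) held 26.0%, the smaller share of its pair. Close to even were the 2 AMPA receptor genes of GRIA1 (49.6% for ENSDARG00000021352), those of SLC17A6 (46.1% for ENSDARG00000001127), mapta against maptb (55.6%), the 2 genes of GRIA2 (57.2% for ENSDARG00000052765) and SYN2 against syn2b (64.5%). In the fish as a whole the widest range of a share was that of SLC17A7 (ENSDARG00000016480), from 62.0% to 96.2%. The shares of similar copies are uncertain, because the treatment of reads that match both is not given in the sources used here.

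How these genes differ between the ages after rotenone was asked of the 37.5 nM fish, with the 9 of 1 year as reference for the 7 of 3 years (the age comparison). Of 36 genes that passed the filter on low counts, 1 fell with age, map2, and none rose, in the quasi-likelihood F test of edgeR with p-values adjusted over all genes tested and a threshold of 0.05. That share, 2.78%, stands below the 7.79% of all 19887 tested genes called in either direction (2.87% lower, 4.92% higher). At an unadjusted p under 0.05 there were 8 of 36, of which 6 were lower and 2 higher, where the whole table gave 25.6%. The log2 fold change was negative in 25 of the 36 and positive in 11, with a median of -0.05 against 0.01 over all genes; with library totals in place of TMM, 20 were negative and the median was -0.004 against 0.05. In none of the 39 genes were the groups free of overlap, as they were in 0.749% of all tested genes. The genes that failed the filter were STX1A, dlg4b and syt1b.

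The gene map2, whose protein stabilises microtubules in dendrites, ranged from 294 to 348 CPM (median 323) in 1 year fish at 37.5 nM and from 259 to 309 CPM (median 283) in 3 year fish. All 7 of the 3 year fish stood below the 1 year median, though the groups overlapped, and 1 year fish at 3.75 nM ranged from 289 to 350 CPM (median 327). The log2 fold change with age was -0.18 (SE 0.05, adjusted p = 0.0318, edgeR). It was -0.17 within the lower run and -0.19 within the higher run, neither past the threshold on its own. The call was lost with library totals (adjusted p = 0.0976) and without 4 libraries high in eye, muscle or skin markers, picked with earlier results of these data known (replicates 1, 4 and 5 at 1 year and 7 at 3 years; adjusted p = 0.112), but not without replicate 6 at 1 year alone (adjusted p = 0.0315). It was also lost when any of replicates 2, 3, 7 and 9 of the 1 year fish or 3, 4, 6 and 7 of the 3 year fish was left out (adjusted p from 0.0525 to 0.0717). Microglia and macrophage markers moved with age too, with a summed level of 1212 to 1792 CPM (median 1415) at 1 year and 1509 to 2695 CPM (median 2041) at 3 years and 12 of 23 markers higher, none lower. Endothelial markers had a summed level of 677 to 997 CPM (median 863) at 1 year and 616 to 1005 CPM (median 683) at 3 years, with 2 of 21 lower and none higher. Of 3 tested pituitary markers 1 was lower and none higher, the sums being 6.73 to 324 CPM (median 23.3) and 5.35 to 16.2 CPM (median 7.21). Of 16 oligodendrocyte markers 1 was higher and none lower, with median sums of 12882 CPM at 1 year and 11575 CPM at 3 years. None of 19 tested radial glia markers was called, the median sums being 6407 and 6008 CPM. Over all genes 4.92% were higher and 2.87% lower. Eye and pineal, skeletal muscle, and skin and mucosa markers gave no call. Their log2 fold changes were negative in 21 of 22, 19 of 23 and 3 of 22, against 48.8% of all genes. Among endothelial markers 18 of 21 were negative, among oligodendrocyte markers 8 of 16 and among radial glia markers 13 of 19. The part of these cells and tissues in the difference of map2, and in those of the further genes below, was not tested.

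**Figure D2:**
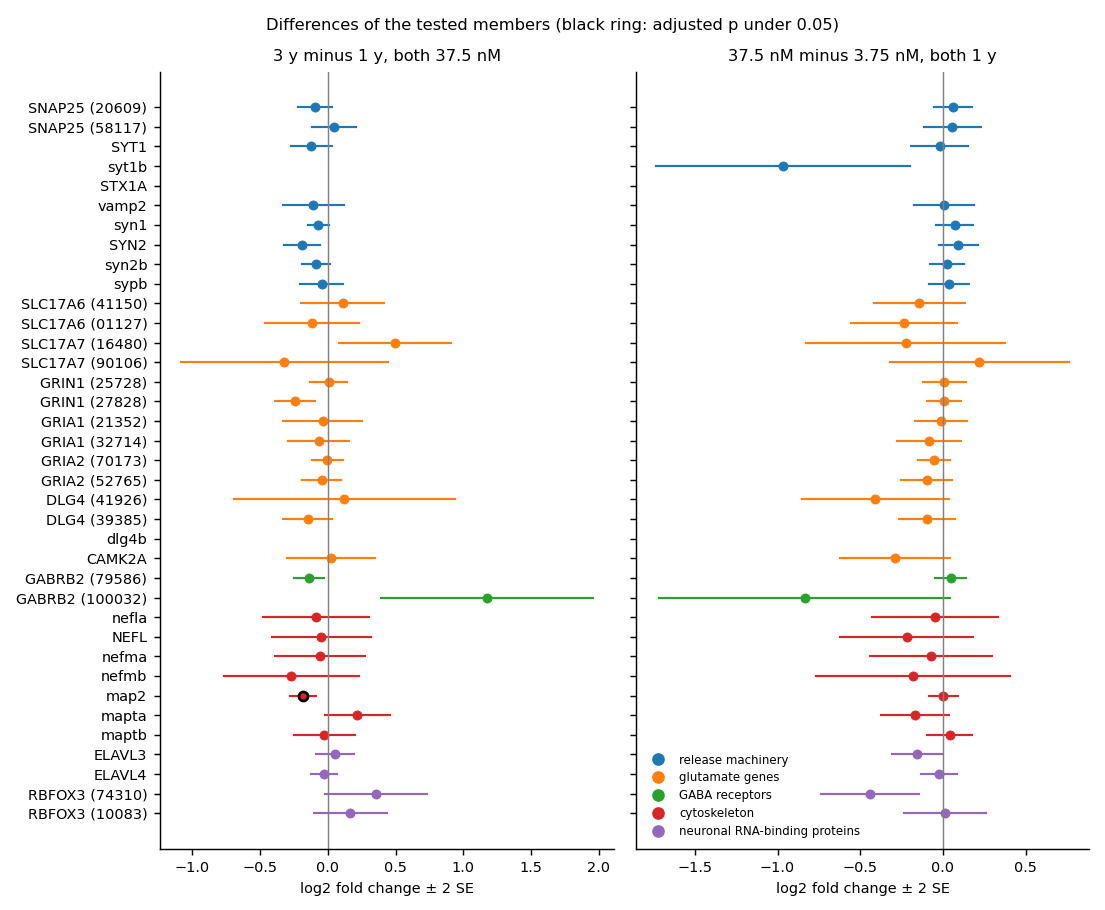
Log2 fold changes (points) with intervals of 2 SE (lines) of 34 (left) and 35 (right) of the tested genes, for 3 against 1 year at 37.5 nM (left) and 37.5 against 3.75 nM at 1 year (right), coloured by class, with identifiers shortened. A black ring marks adjusted p under 0.05, which map2 alone has, on the left at -0.18.

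Among the release machinery none of 8 tested genes passed, and 7 of the 8 log2 fold changes were negative (median -0.09), against 48.8% of all genes. Only 1 of the 8, SYN2, had an unadjusted p under 0.05 (edgeR). SYN2, a synapsin that tethers vesicles in the reserve pool, ranged from 379 to 491 CPM (median 412) at 1 year, 324 to 425 CPM (median 351) at 3 years and 353 to 450 CPM (median 379) at 3.75 nM. The ranges overlapped, and the log2 fold change with age of -0.19 (SE 0.07) had an adjusted p of 0.0904 (edgeR). Its relative syn1 had the narrowest spread of these genes at 37.5 nM, 590 to 702 CPM (median 669) at 1 year and 589 to 647 CPM (median 639) at 3 years, with all 7 of the older fish below the 1 year median (log2 fold change -0.07, SE 0.04, adjusted p = 0.279, edgeR). SNAP25 (ENSDARG00000020609) ranged from 3977 to 5038 CPM (median 4312) at 1 year, 3788 to 4738 CPM (median 3997) at 3 years and 3599 to 4769 CPM (median 4160) at 3.75 nM. All 3 ranges of this most abundant gene cover much the same levels (age: -0.09, SE 0.06; 37.5 against 3.75 nM: 0.06, SE 0.06, on the log2 scale). The remaining genes, SNAP25 (ENSDARG00000058117), SYT1, vamp2, syn2b and sypb, had log2 fold changes with age from -0.12 to 0.05. SYT1 stood below the 1 year median in 7 of 7 fish (-0.12, SE 0.08), with 0.06 in the lower and -0.26 in the higher run.

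Of 13 tested glutamate genes none passed by edgeR as fitted here. The NMDA receptor gene GRIN1 (ENSDARG00000027828), whose product is needed in every NMDA receptor, came nearest, with 1419 to 1940 CPM (median 1722) at 1 year and 1294 to 1712 CPM (median 1399) at 3 years. All 7 of the 3 year fish were below the 1 year median, and the 3.75 nM fish spanned 1596 to 1880 CPM (median 1684). The log2 fold change was -0.24 (SE 0.07, adjusted p = 0.0519, edgeR), -0.22 in the lower and -0.26 in the higher run, and it passed the threshold in 9 of 27 alternatives, among them the fit with the run as a term (adjusted p = 0.0489) and DESeq2 (adjusted p = 0.0187). The other GRIN1 gene (ENSDARG00000025728) stood at 0.01 (SE 0.07). SLC17A7 (ENSDARG00000016480), a vesicular glutamate transporter gene, pointed the other way, with 31.4 to 89.4 CPM (median 44.3) at 1 year and 59.6 to 106 CPM (median 70.7) at 3 years. All 7 older fish stood above the 1 year median, but the 3.75 nM fish spanned 10.9 to 92.7 CPM (median 70.7), wider than either (age: 0.50, SE 0.21, adjusted p = 0.144, edgeR; 0.20 in the lower and 0.71 in the higher run). Both genes of GRIA2, an AMPA receptor subunit that limits calcium entry, lay near 0 (-0.002 and -0.04). DLG4 (ENSDARG00000041926), a postsynaptic scaffold gene, ranged from 6.39 to 29.1 CPM (median 12) at 1 year, 3.55 to 26.9 CPM (median 19) at 3 years and 13.5 to 27.8 CPM (median 18.1) at 3.75 nM. Its log2 fold change with age was 0.12 (SE 0.41), with -1.32 in the lower and 0.61 in the higher run. The kinase gene CAMK2A ranged from 101 to 253 CPM at 1 year and 159 to 234 CPM at 3 years (0.02, SE 0.16).

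The 2 GABA receptor genes differed in level by far and in the sign of their difference. GABRB2 (ENSDARG00000079586) ranged from 297 to 386 CPM (median 336) at 1 year, 286 to 339 CPM (median 301) at 3 years and 289 to 340 CPM (median 327) at 3.75 nM (age: -0.14, SE 0.05, adjusted p = 0.127, edgeR). The scarce GABRB2 (ENSDARG00000100032) ranged from 0.430 to 2.38 CPM (median 0.640) at 1 year, 0.813 to 3.53 CPM (median 1.61) at 3 years and 0.377 to 4.47 CPM (median 1.12) at 3.75 nM. All 7 of the 3 year fish stood above its 1 year median, yet the range at 3.75 nM covers both (age: 1.18, SE 0.39, adjusted p = 0.0726, edgeR, and 0.0363 with DESeq2). The age difference of this scarce gene passed the threshold in 3 of 27 alternatives, and its adjusted p was 0.346 in the lower run alone (edgeR). The median count of the gene was 22.5 over the fish, which limits its precision.

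**Figure D3:**
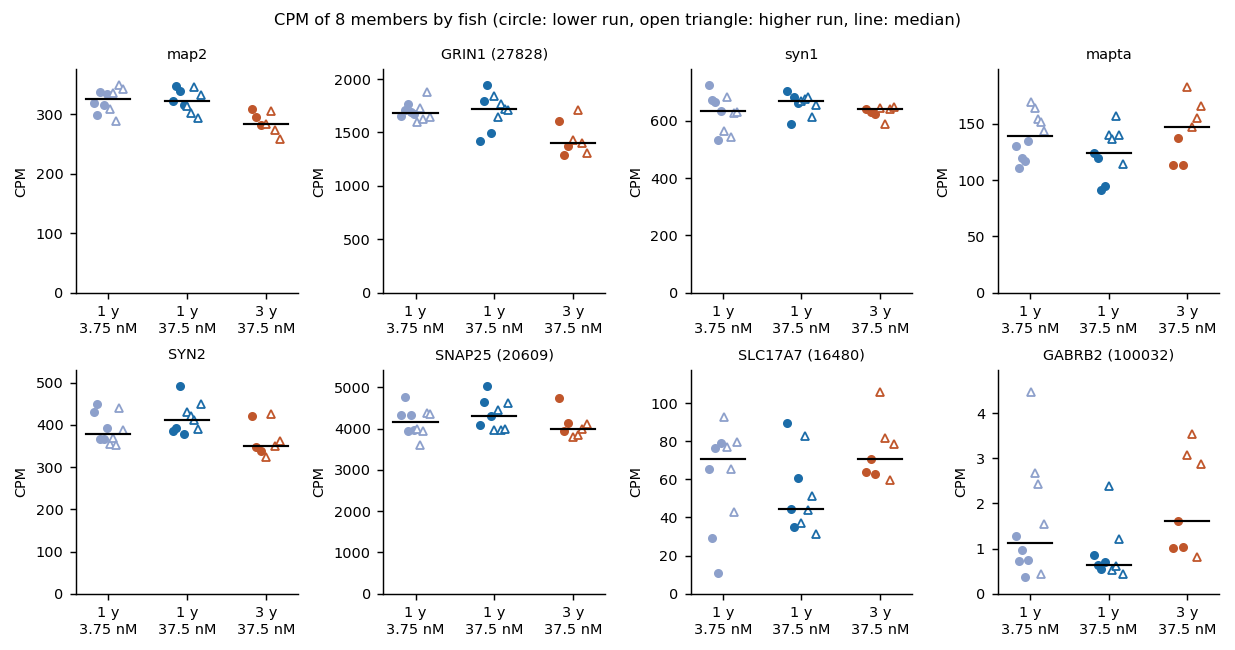
CPM (vertical axes, from 0) of 8 genes in each fish of the 3 groups, with filled circles for the lower and open triangles for the higher run of fish numbers and lines at group medians. In map2, GRIN1 (ENSDARG00000027828) and syn1 all 7 of the 3 year fish lie below the median of the 1 year fish at 37.5 nM, and in SLC17A7 and GABRB2 (ENSDARG00000100032) above it.

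The other cytoskeleton genes varied more between fish than between groups. The median coefficient of variation of the 7 cytoskeleton genes was 31.7%, 23.7% and 25.4% in the groups at 3.75 nM, at 37.5 nM and 1 year, and at 3 years, against 11.2%, 10.7% and 11.5% over all genes with a mean of at least 10 CPM. It was carried by the neurofilament genes, which form the axonal intermediate filaments, since map2 varied by 6.21%, 5.87% and 6.18%. In nefma, the values ran from 255 to 642 CPM (median 495) at 3.75 nM, 296 to 580 CPM (median 436) in 1 year fish at 37.5 nM and 304 to 630 CPM (median 433) at 3 years. The 3 ranges nearly coincide (age: -0.05, SE 0.17, log2). Summed over nefla, NEFL, nefma and nefmb, fish of one group differed by 2.84 times at 3.75 nM (394 CPM in replicate 7, 1120 CPM in replicate 2), 1.86 times at 1 year and 37.5 nM (535 CPM in replicate 8, 997 CPM in replicate 7) and 2.28 times at 3 years (477 CPM in replicate 2, 1087 CPM in replicate 6). The 4 genes went together: in 10 of 26 fish all 4 were above their own median over the fish, in 10 none was, and 6 fish were mixed. The microtubule protein gene mapta, one of 2 tau genes, ranged from 90.8 to 157 CPM (median 124) at 1 year, 113 to 182 CPM (median 147) at 3 years and 111 to 170 CPM (median 139) at 3.75 nM (age: 0.22, SE 0.12, adjusted p = 0.264, edgeR). Its duplicate maptb stood at -0.02 (SE 0.11).

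**Figure D4:**
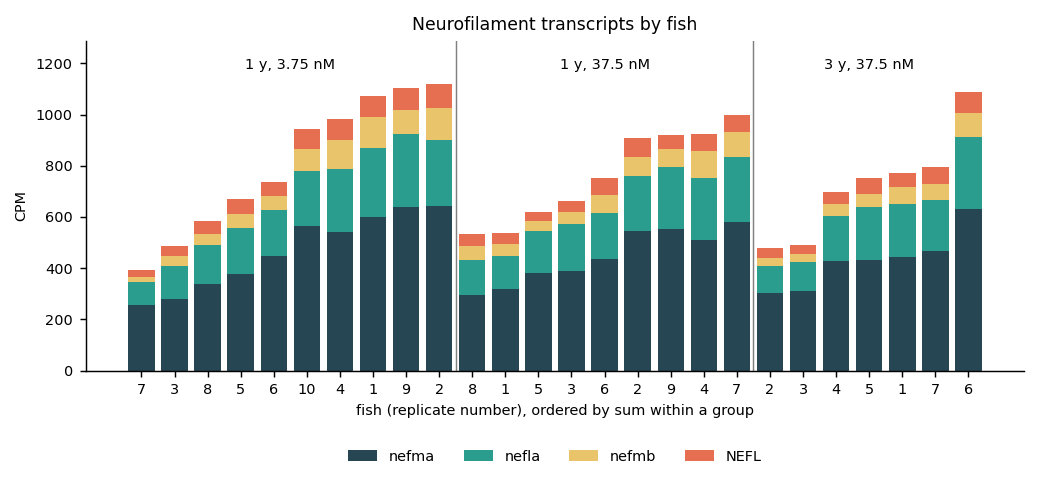
Stacked CPM of the neurofilament genes nefma, nefla, nefmb and NEFL in each of 26 fish, ordered by their sum within a group and numbered by replicate. The sums run from 394 to 1120 CPM, and each group holds fish of low and of high sum.

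In the neuronal RNA-binding proteins, which handle the splicing and stability of neuronal transcripts, no gene passed in the age comparison. RBFOX3 (ENSDARG00000074310) ranged from 1.67 to 2.77 CPM (median 2.12) at 1 year, 1.46 to 3.56 CPM (median 3.19) at 3 years and 1.95 to 4.13 CPM (median 3.09) at 3.75 nM (age: 0.36, SE 0.19, adjusted p = 0.241, edgeR). The abundant RBFOX3 (ENSDARG00000010083) ranged from 127 to 259 CPM (median 196), 170 to 246 CPM (median 224) and 136 to 233 CPM (median 197) in the same order (age: 0.17, SE 0.13, adjusted p = 0.461, edgeR). ELAVL4, a Hu protein gene, held to 584 to 734 CPM, 553 to 645 CPM and 542 to 721 CPM (medians 619, 626 and 641), and ELAVL3 stood at 0.06 (SE 0.07). Neither Hu gene nor RBFOX3 gene had groups that separate.

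The dose comparison set 37.5 nM against 3.75 nM in 1 year fish. It shares the 9 fish at 37.5 nM with the age comparison, so that the values of both are not independent. None of 37 tested genes passed by edgeR, and none by DESeq2 or by any of the 31 alternatives; over all 19691 genes 0.0508% were called, and the groups did not overlap in 0.0355%, but in none of the 39. At an unadjusted p under 0.05 there were 2, both lower at 37.5 nM, where all genes gave 9.25%. One was RBFOX3 (ENSDARG00000074310), with all 9 fish at 37.5 nM below the median of the 3.75 nM fish (-0.44, SE 0.15, adjusted p = 0.448, edgeR). The other was syt1b, at 0.135 to 1.39 CPM (median 0.659) at 3.75 nM, 0.129 to 0.833 CPM (median 0.287) at 37.5 nM and 0.194 to 1.05 CPM (median 0.396) at 3 years. Its median count was 12.5, and its log2 fold change of -0.97 (SE 0.38, adjusted p = 0.493, edgeR) was -1.76 in the lower and -0.20 in the higher run. For some abundant genes the intervals of 2 SE were narrow: -0.08 to 0.09 for map2, -0.10 to 0.11 for GRIN1 (ENSDARG00000027828) and -0.05 to 0.17 for SNAP25 (ENSDARG00000020609). They were wider for SNAP25 (ENSDARG00000058117), -0.12 to 0.23, and for SYT1, -0.19 to 0.15. For neurofilaments they were wide, -0.44 to 0.30 for nefma, and for DLG4 (ENSDARG00000041926) they were -0.85 to 0.03 around a log2 fold change of -0.41 (SE 0.22, adjusted p = 0.579, edgeR).

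Whether 2 copies moved unequally was tested by the ratio of their counts inside each library, which needs neither scaling nor gene length. In 15 pairs and both comparisons, 0 of 30 exact permutation tests over fish (two-sided) had an adjusted p under 0.05, and 3 had an unadjusted p under 0.05 (GABRB2 with age, RBFOX3 and SYT1 with dose). The smallest p, 0.0127 (adjusted p = 0.344), was that of GABRB2 in the age comparison. There the count of ENSDARG00000079586 was 124 to 752 times that of ENSDARG00000100032 at 1 year (median 500) and 86.1 to 359 times at 3 years (median 176). All 7 of the older fish were below the 1 year median of this ratio. Without replicate 5 of the 1 year fish the adjusted p was 0.0466 (exact permutation). That fish stood apart from its group in ENSDARG00000100032 itself, at 2.38 CPM against 0.430 to 1.22. The threshold was passed in only 1 of 31 alternatives, and the adjusted p rose to 0.453 in another (exact permutation). For DLG4 in the dose comparison (mean log2 ratio higher by 0.40 at 37.5 nM, adjusted p = 0.344 by exact permutation), leaving out replicates 1, 4 and 5 at 37.5 nM gave 0.69 with an adjusted p of 0.0150. These were picked with earlier results of these data known. Replicates 1, 4 and 5 at 3.75 nM, also high in eye, muscle or skin markers, were kept. For DLG4 with dose, too, the threshold was passed in only 1 of 31 alternatives. In GRIN1, where one copy stood lower with age and the other near 0, the count ratio of ENSDARG00000025728 to ENSDARG00000027828 was 0.272 to 0.431 at 1 year and 0.277 to 0.448 at 3 years (p = 0.0702, adjusted p = 0.344, exact permutation).

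Further genes of the same processes were taken from lists of 270 genes that hold none of the 39. In the age comparison 31 of 262 tested genes passed, 10 higher and 21 lower (11.8% of them, against 7.79% of all genes), and with library totals 26 passed, 12 higher and 14 lower. Without the 4 libraries named for map2 there were 23, 11 higher and 12 lower, and in the lower run alone none. Leaving out replicate 3, 7 or 9 of the 1 year fish gave 18, 20 and 19, and replicate 2, 4 or 7 of the 3 year fish 18, 12 and 11. In the dose comparison 0 of 261 passed by edgeR, by DESeq2 or in any other alternative. At an unadjusted p under 0.05 there were 39, of which 34 were lower and 5 higher at the higher concentration. All genes gave 9.25% there, 1088 of 1821 being lower. The log2 fold change was negative in 166 of the 261 (63.6%), against 52.0% of all genes.

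Of 60 further release genes 5 rose and 3 fell with age, 8 in all (8.33% and 5%, against 4.92% and 2.87% of all genes). The active zone scaffold gene rims2b fell from 87.6 to 109 CPM (median 95.1) to 69.8 to 84.3 CPM (median 78.5), with no overlap of the groups (-0.30, SE 0.05, adjusted p = 0.00381, edgeR). RAB3C, a small GTPase of synaptic vesicles, fell as well (-0.24, SE 0.06). Higher were RIMBP2 (ENSDARG00000001154; 0.68, SE 0.16), which links RIM proteins to calcium channels, rph3aa (0.65, SE 0.17), a rabphilin, PCLO (0.44, SE 0.12), a giant active zone scaffold, and nsfb (0.28, SE 0.07), the ATPase that takes SNARE complexes apart. All 7 of the 3 year fish stood above the 1 year median in these 4 genes. In 1 year fish at the lower concentration the mean of RIMBP2 was 25.2 CPM. The compared groups had 18.1 CPM at 1 year and 29.1 CPM at 3 years. For PCLO the mean at the lower concentration was 196 CPM, between 157 and 214 CPM, and for rph3aa 32.9 CPM, between 27.9 and 44.0 CPM. For nsfb it was 17.2 CPM, below both 17.6 and 21.4 CPM. For rph3aa the log2 fold change was 0.19 in the lower and 1.04 in the higher run. In place of 8 calls, 5 were made when replicate 3, 7 or 8 of the 1 year fish or replicate 2 of the 3 year fish was left out, and 5 without the 4 libraries named for map2. The higher run alone gave 4. Without replicate 4 or 7 of the 3 year fish there were 3 and 2 calls. The call of PCLO was lost in 9 of 27 alternatives and that of RAB3C in 6.

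Of 77 further genes of the glutamate synapse 2 rose and 9 fell (2.60% and 11.7%, against 4.92% and 2.87% of all genes). Both genes of CACNG2, an auxiliary subunit that carries AMPA receptors to the membrane, fell: ENSDARG00000032565 from 86.4 to 123 CPM (median 107) to 71.6 to 88.1 CPM (median 82.6; -0.34, SE 0.08), and ENSDARG00000102376 by a log2 fold change of -0.36 (SE 0.08). A further auxiliary subunit, CACNG8 (ENSDARG00000070626; -0.26, SE 0.07), and the AMPA receptor gene GRIA3 (ENSDARG00000032737; -0.30, SE 0.07) fell too. The kainate receptor gene GRIK5 fell from 50.2 to 61.5 CPM (median 53.8) to 39.1 to 50.1 CPM (median 47.0), by -0.25 (SE 0.06). Its groups all but touched, with a lowest 1 year value of 50.151 CPM and a highest 3 year value of 50.145 CPM. The adhesion gene NLGN3 fell by a log2 fold change of -0.17 (SE 0.04). In each of these 6 genes all 7 of the 3 year fish were below the 1 year median. In place of 11 calls the list gave 17 when 1 year replicate 1 was left out and 7 when replicate 3 was, 5 without replicate 4 or 7 of the 3 year fish, and 10 (3 higher, 7 lower) with library totals.

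Of 36 further genes of GABA and glycine synapses 1 rose and 5 fell (2.78% and 13.9%, against 4.92% and 2.87% of all genes). But with library totals 1 rose and 1 fell. GAD2, an enzyme that makes GABA, fell from 964 to 1428 CPM (median 1102) to 638 to 1061 CPM (median 886; -0.39, SE 0.11, adjusted p = 0.0369, edgeR). Both genes of the receptor scaffold gephyrin fell (GPHN, ENSDARG00000089076, -0.23, SE 0.06; ENSDARG00000100851, -0.27, SE 0.08). The receptor subunit gene GABRA6 (ENSDARG00000058736) rose from 2.52 to 9.81 CPM (median 5.24) to 6.68 to 17.1 CPM (median 12; 0.98, SE 0.29), with 0.32 in the lower and 1.58 in the higher run. Its mean in 1 year fish at the lower concentration was 7.77 CPM, between the means of 5.47 and 10.9 CPM of the compared groups. Each of these 4 calls was lost in at least 8 of 27 alternatives. The list gave no call when replicate 7 or 9 of the 1 year fish or replicate 2, 4 or 7 of the 3 year fish was left out, 1 to 3 calls when replicate 2, 3, 6 or 8 of the 1 year fish or replicate 3 of the 3 year fish was, 2 without the 4 libraries named for map2, and 3 in the higher run alone.

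Of 55 further cytoskeleton genes 2 rose and 4 fell (3.64% and 7.27%, against 4.92% and 2.87% of all genes). MAP1A, a microtubule protein of mature neurons, rose from 375 to 530 CPM (median 412) to 483 to 593 CPM (median 560; 0.35, SE 0.06, adjusted p = 0.00423, edgeR), and ank2b, an ankyrin, by 0.18 (SE 0.05), a call lost in 20 of 27 alternatives. The mean of ank2b in 1 year fish at the lower concentration was 966 CPM, between 881 and 999 CPM in the compared groups. For MAP1A it was 471 CPM, between 425 and 543 CPM. The tubulin gene tuba1c fell from 593 to 827 CPM (median 681) to 432 to 590 CPM (median 568), the groups not overlapping (-0.33, SE 0.07). DCLK1 (ENSDARG00000018856; -0.34, SE 0.08), a microtubule-binding kinase known from migrating and growing neurons, STMN2 (ENSDARG00000070537; -0.29, SE 0.07) and STMN4 (ENSDARG00000043932; -0.37, SE 0.09), of the stathmin family that destabilises microtubules, fell as well. Over the 27 alternatives this list gave 0 to 9 calls. The call of STMN4 was lost in 5 of them, of MAP1A and DCLK1 in 2, and of tuba1c and STMN2 in 1. Among 34 further genes of RNA-binding proteins and ion transport, 0 passed by edgeR (7.79% of all genes), and 0 to 6 passed over the alternatives. At an unadjusted p under 0.05 there were 9, where all genes gave 25.6%.

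A term for the run of fish numbers, crossed with the groups, picked out more of the 39 genes than age or dose. By edgeR with adjusted p under 0.05, 6 of 36 were higher in the higher run of the age libraries (16.7%) and none lower. Over all genes 4.90% were higher and 4.13% lower there (9.03% in either direction). In the dose libraries 7 of 37 were higher (18.9%) and none lower. All genes gave 6.19% higher and 5.29% lower in these (11.5% in either direction). Since the comparisons share 9 fish, these counts are not independent; 5 genes are in both and 8 in either. They were chosen after their values were seen. The vesicle SNARE gene vamp2 stood at 76.5, 77.1 and 90.8 CPM in the lower and 102, 107, 119 and 133 CPM in the higher run of the 3 year fish, at 88.3, 88.3, 101 and 107 CPM against 112, 113, 115, 117 and 131 CPM in 1 year fish at 37.5 nM, and at 77.4 to 110.3 against 110.4 to 139 CPM at 3.75 nM. In all 3 groups the runs did not overlap (log2 difference 0.38, SE 0.07, adjusted p = 0.00598 in the age libraries, edgeR). The tau gene mapta behaved alike at 3.75 nM (111 to 135 against 143 to 170 CPM) and at 3 years (113 to 138 against 147 to 182 CPM), while the runs overlapped in 1 year fish at 37.5 nM (90.8 to 124 against 114 to 157 CPM; 0.38, SE 0.08 in the age libraries).

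The other genes of this kind were SLC17A6 (ENSDARG00000041150; 0.45, SE 0.11 in the age libraries and 0.43, SE 0.10 in the dose libraries), SLC17A6 (ENSDARG00000001127; 0.54, SE 0.12 and 0.37, SE 0.14, the latter not past the threshold), RBFOX3 (ENSDARG00000074310; 0.59, SE 0.13 and 0.41, SE 0.12) and ELAVL3 (0.19, SE 0.05 and 0.20, SE 0.06). In the dose libraries alone, the AMPA receptor genes GRIA1 (ENSDARG00000032714; 0.30, SE 0.07) and GRIA2 (ENSDARG00000070173; 0.13, SE 0.04) passed as well. Among the further genes of the same processes 35 of 262 (13.4%) were higher and 2 lower in the higher run of the age libraries. In the dose libraries 39 of 261 (14.9%) were higher and none lower. All genes gave 4.90% higher and 4.13% lower in the age libraries, and 6.19% and 5.29% in the dose libraries. The interaction term of edgeR called a dependence on the run in 0 of 36 genes for age, with 2 at an unadjusted p under 0.05. For dose it called 0 of 37, with 4. Over all genes the term called 0% in both comparisons, with 7.71% and 7.37% at an unadjusted p under 0.05. With only 3 to 5 fish of a run in each group, the term could miss such a dependence. As both runs cross all groups, a difference between them does not line up with age or dose. The further gap inside the lower run does line up with concentration. What the run stands for was not tested.

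**Figure D5:**
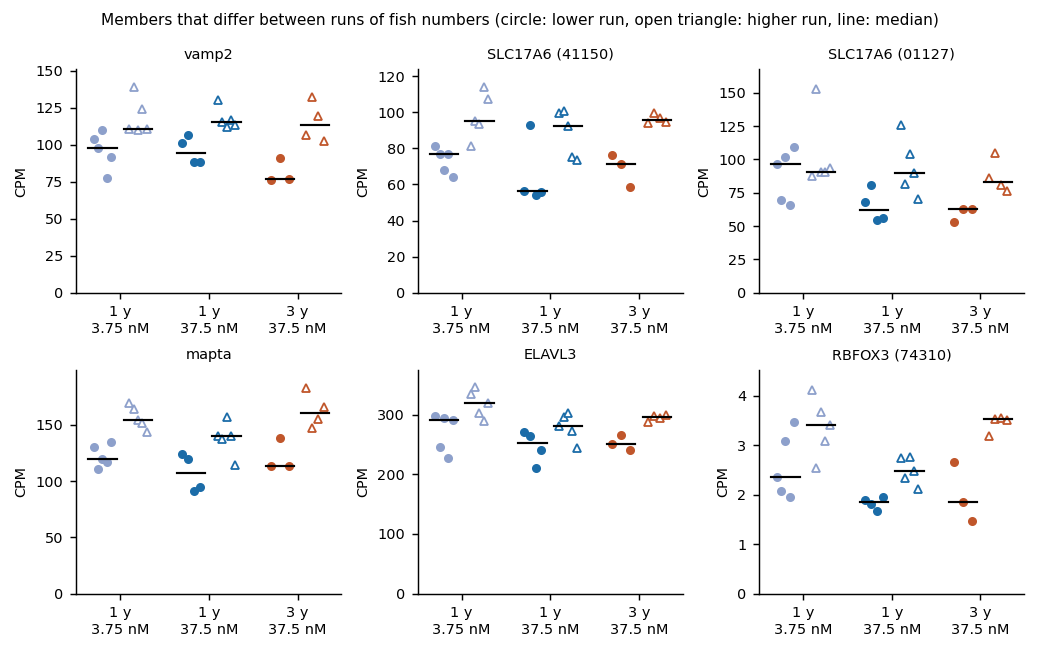
CPM (vertical axes, from 0) of 6 genes that differ between the lower (filled circles) and the higher (open triangles) run of fish numbers, by group, with lines at medians. In vamp2 the 2 runs do not overlap in any group, while in both SLC17A6 genes they overlap in 1 year fish.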

How the data were processed

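The authors deposited unnormalized counts as whole numbers, for 32105 Ensembl genes. Per the labels' protocols, the library kit was TruSeq RNA v2, which does not mark strand, so a gene and its antisense or overlapping partner cannot be told apart. The tools featureCounts 1.4.6-p4, STAR 2.4.1d and CASAVA 1.8.2 and the build GRCz10 come from the submitters' processing notes, which give them no role here. The tables that the authors deposited as RPKM were treated as a score without a fixed unit. This is because each gene is divided by a library total that changes down the rows with a period of 50. With that factor removed, 26660 genes were given a length and with it TPM. Agreement of lengths between libraries, within 0.0624%, was checked only for 8235 genes that never fell under 300 counts. Scarce genes such as syt1b, STX1A and dlg4b are not among these.

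Genes were named from an Ensembl symbol table (26269 of 32105 have a symbol). Differences were tested with edgeR 4.0.16 in R 4.3.3 (quasi-likelihood F test, TMM, filterByExpr, robust dispersion, Benjamini-Hochberg at 0.05 over all genes tested), with no covariate. CPM use TMM library sizes, and SE is the size of the log2 fold change over the root of F. The score tables entered no test. Alternatives used DESeq2 1.42.0 and limma 3.58.1. The exact permutation tests were written for this purpose in Python 3.11.15, with 0.5 added to counts in ratios. The scripts were tested on simulated data.

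The genes and lists were chosen with earlier results of these data known. Values are given for genes past the threshold and, per class, for the 2 with the smallest p in the age comparison, the 1 with the smallest p in the dose comparison and the most abundant; further genes are named where past the threshold, at most 6 per list. Some genes that meet this rule are not reported here. Other genes named were chosen after their values were seen. Of 279 symbols on the further lists 265 were matched, and of 196 marker symbols 173. Each title gives its fish a number of its own, with no word on pooling, so p-values measure the spread between these samples. No sequences are shown.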

Additional observations from a re-analysis of the deposited data

Results flagged for a closer look

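In 13 of 111 gene and group combinations with 4 to 10 fish, 1 fish stood apart from the rest of its group by Dixon's test at the 95% level, which chance gives in about 1 of 20. In the 3 year fish, replicate 5 held 481 CPM of maptb, the second tau gene, against 261 to 307 in the others, and 589 CPM of syn1 against 624 to 647. Replicate 1 held 4738 CPM of SNAP25 (ENSDARG00000020609) against 3788 to 4133, and 339 CPM of GABRB2 (ENSDARG00000079586) against 286 to 306. Replicate 3 held 553 CPM of ELAVL4 against 619 to 645, and replicate 4 held 13.2 CPM of SLC17A7 (ENSDARG00000090106) against 3.10 to 6.22.

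In 1 year fish at 37.5 nM, replicate 9 held 21.2 CPM of SLC17A7 (ENSDARG00000090106) against 3.06 to 9.09, and replicate 6 held 734 CPM of ELAVL4 against 584 to 658. Replicate 5, a library high in eye and pineal markers, held 2.38 CPM of GABRB2 (ENSDARG00000100032) against 0.430 to 1.22 and 0.833 CPM of syt1b against 0.129 to 0.464. In the fish at 3.75 nM, replicate 4, the library high in muscle and skin markers, held 433 CPM of SNAP25 (ENSDARG00000058117) against 614 to 754. Replicate 7, the fish with the lowest neurofilament sum of its group, held 153 CPM of SLC17A6 (ENSDARG00000001127) against 65.5 to 109 and 112 CPM of GRIA1 (ENSDARG00000021352) against 86.3 to 98.1.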

How the results depend on the processing

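In the age comparison 1549 genes were called, 2541 with DESeq2, 16 in the lower run alone, 738 without the 4 libraries high in eye, muscle or skin markers that the map2 result names, and 942 to 2156 with 1 library left out (in 3 year fish, 942 when replicate 4 and 944 when replicate 7 was left out). Of the 39 genes 1 was called, 4 with DESeq2, 2 each without a filter, with all 26 libraries, with the run as a term and with voom, 0 with library totals, in each run alone and without those 4 libraries, and 0 to 4 with 1 library left out. With DESeq2, map2, GRIN1 (ENSDARG00000027828) and the scarce GABRB2 (ENSDARG00000100032) were among these, the last higher with age. In the dose comparison 10 genes were called, 59 with DESeq2, 18 with all 26 libraries, 24 with the run as a term, 0 in the higher run alone, 3 without replicates 1, 4 and 5 at 37.5 nM, 0 without these replicates of both groups (chosen after seeing the data), and 2 to 12 with 1 library left out. Duplicate pairs called numbered 0, with 1 (DLG4 with dose) without replicates 1, 4 and 5 at 37.5 nM and 0 to 1 with 1 library left out. No direction of a called gene turned, and from one alternative to another each class sum moved by less than the spread between fish. That is the change between alternatives, not the difference between groups. The causes were not tested. No paired analysis was possible because the labels give no replicate number shared by the groups. Depth limits syt1b, STX1A, dlg4b and the scarcer genes of GABRB2 and RBFOX3.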
